A study of Mus musculus with 18 samples.

Results

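The effect of adding *Fli1* and *Gata2* to *Tal1* and *Lmo2* was examined in mouse embryonic fibroblasts (MEFs) of strain 129 that were reprogrammed towards blood. The 2 combinations were *Tal1* (also *Scl*) with *Lmo2*, named SL, and all 4 factors, *Tal1*, *Fli1*, *Gata2* and *Lmo2*, named SFGL. Both were sequenced at day 12 and at day 21, so that 4 libraries of the 18 samples in the series enter the comparison. Of the other samples, 4 are untreated fibroblasts (uFIB) and fibroblasts given *Fli1*, *Gata2* and *Lmo2* (labelled FGL) at the same days, and 10 are stages of blood development from embryonic stem cells, 2 for each stage. The fibroblasts were wild type or carried a doxycycline-inducible *Tal1* cassette, and the labels do not say which was used for a given library. Per the study's methods, cells with CD45, CD41, CD31 or CD117 at the surface were removed before transduction. *Fli1*, *Gata2* and *Lmo2* came from lentiviral vectors, and the study also speaks of vectors for all 4 factors. Doxycycline was added in some cases to induce *Tal1* and was renewed during the culture. The medium held a mixture of blood cytokines with IL3, GM-CSF, c-KIT ligand, thrombopoietin and erythropoietin among them. The study describes the sequenced cells as hematopoietic cells from reprogramming and gives no later sort in the methods, and transcripts of fibroblasts were found in every library.

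GATA2 is a zinc finger factor of blood stem and progenitor cells that is kept in the mast cell, basophil and eosinophil lineages, and FLI1 is an ETS factor of endothelium, progenitors and megakaryocytes. TAL1 binds DNA as a basic helix-loop-helix factor and is joined to GATA factors by LMO2, which itself does not bind DNA. In granulocytes the choice between eosinophils, neutrophils, basophils and mast cells is known to follow the balance of GATA and C/EBP factors. Each of these cells stores its own proteins in granules, and the transcripts of these proteins mark the cell type well.

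Expression was measured as FPKM, which scales fragments by the length of the transcript and the depth of the library, with 1 value per gene and library for 20495 gene entries. A change is given as the difference between SFGL and SL on log2(FPKM + 1), a scale that understates the change of low genes, and ratios are ratios of FPKM. A gene was tested when its higher library had at least 10 FPKM on each day, which left 6063 of the 20495 entries, and it was called when it changed at least 2-fold in the same direction on both days. A gene can thus enter only through the library in which it is high. With 1 library per condition and day there is no replicate error, no p-value was calculated, and no difference has a replicate check. The comparisons of day 12 and day 21 share no library. The number of reads is not held by FPKM values, but from the steps between low values the depth of the SFGL library relative to the SL library was 0.722 at day 12 and 1.27 at day 21. In bulk cultures, fewer cells of a type and less RNA per cell cannot be told apart. Genes of the Y chromosome lay between 5.08 and 40.8 FPKM in the libraries of day 12 and between 0 and 0.0244 FPKM in those of day 21, so the cells of the 2 days differ in source, and time and cell source cannot be told apart.

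The transduced factors were examined first. The values do not separate transcripts of the vectors or the cassette from those of the endogenous genes. *Gata2* (chromosome 6, 88193891 to 88207032 on GRCm38) had 68.8 FPKM (SL) and 110 FPKM (SFGL) on day 12, followed by 62.6 and 132 FPKM on day 21. It was thus higher in SFGL on both days, by 1.60-fold and 2.10-fold, while uFIB had 1.80 and 2.13 FPKM. *Fli1* (chromosome 9, 32422204 to 32543432) had 46.7 FPKM (SL) and 41.2 FPKM (SFGL) on day 12, followed by 34.4 and 27.8 FPKM on day 21. *Fli1* was lower in the libraries labelled SFGL than in those labelled SL on both days, which goes against the direction of the label, and SL itself was above the 3.43 and 3.02 FPKM of uFIB. The name SFGL is used below for the libraries labelled so. *Tal1* differed little on day 12, with 62.0 and 58.0 FPKM, and more on day 21, with 347 and 119 FPKM, a change of -1.54 on the second day. *Lmo2* had 57.0 and 48.4 FPKM at day 12 and 150 and 128 FPKM at day 21. In these values, the SFGL libraries therefore differed from the SL libraries in more *Gata2* on both days and, at day 21, also in less *Tal1*. The libraries labelled FGL, which were also given *Fli1*, had 8.29 FPKM of it on day 12 and 3.35 FPKM on day 21. They had 21.9 and 35.1 FPKM of *Gata2* and 36.2 and 66.5 FPKM of *Lmo2*. At day 21 *Fli1* in FGL thus lay near uFIB, while *Gata2* and *Lmo2* lay above it, with 2.28 FPKM of *Lmo2* in uFIB. A difference in vector *Fli1* cannot be judged from these values.

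Few genes differed strongly between SL and SFGL. On both days 9 of the 6063 tested genes (0.148%) were at least 2-fold higher in SFGL and 6 (0.0990%) at least 2-fold lower. With 1.5-fold as the limit, 52 genes (0.858%) were higher and 57 (0.940%) lower. Only 1 gene (0.0165%) changed 2-fold in opposite directions. By any amount, 33.4% of the tested genes were higher on both days and 33.9% lower, and 67.3% kept their direction. The list counts below are to be read beside these shares. On single days, 12 genes (0.198%) were at least 2-fold higher and 35 (0.577%) lower at day 12, and 42 (0.693%) were higher and 16 (0.264%) lower at day 21. The median change of all tested genes was -0.02 at day 12 and 0.02 at day 21. The highest of the genes called were granule genes of eosinophils, and the lowest included granule genes of neutrophils. The limit falls between *Pecam1*, with a smaller change of 1.04, and *Perp*, with 0.98, on the high side, and between *Cfd*, at -1.01, and *Camp*, at -0.98, on the low side.

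**Figure D1:**
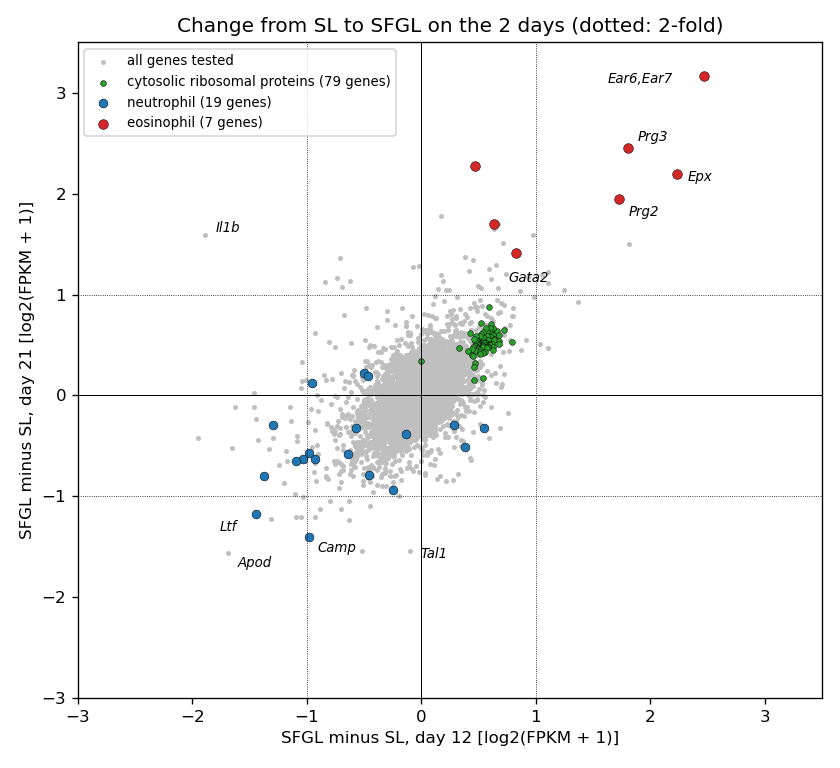
Change of each of the 6063 tested genes from SL to SFGL on log2(FPKM + 1), at day 12 on the horizontal and at day 21 on the vertical axis, with 1 point per gene and dotted lines at 2-fold. Eosinophil genes (red) lie at the upper right, 13 of the 19 neutrophil genes (blue) lie below 0 on both days, and the 79 ribosomal protein genes (green) form a group above 0 on both axes.

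Of the 9 genes called higher, 4 encode eosinophil granule proteins. The *Ear6* and *Ear7* entry (Ear6,Ear7), for ribonucleases of the eosinophil granule, had 40.9 FPKM in SL and 232 FPKM in SFGL on day 12, followed by 15.5 and 147 FPKM on day 21. At 5.66-fold and 9.49-fold this was the largest change on each day among the 9 genes. *Epx*, which encodes eosinophil peroxidase (chromosome 11, 87863997 to 87875536), had 447 and 2109 FPKM at day 12 and 517 and 2365 FPKM at day 21. *Prg2*, the major basic protein of the eosinophil granule (chromosome 2, 84980461 to 84983632), had 1032 and 3415 FPKM at day 12 and 2049 and 7901 FPKM at day 21. In the SFGL library of day 21, *Prg2* had the highest FPKM of all genes. *Prg3*, a second major basic protein gene that lies beside it (84988196 to 84996559), had 47.3 and 167 FPKM at day 12 and 58.8 and 326 FPKM at day 21. All 4 entries were already well above uFIB in SL, where uFIB had at most 1.04 FPKM. These genes were thus already expressed in SL and stood higher in SFGL.

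All 7 tested genes of the eosinophil list were higher in SFGL on both days, with a median change of 1.73 at day 12 and 2.19 at day 21. *Ear1* had 110 and 172 FPKM in SL and SFGL on day 12, followed by 131 and 428 FPKM on day 21. The *Ear2* and *Ear3* entry (Ear2,Ear3) had 162 and 224 FPKM, and then 31.1 and 154 FPKM. The *Ear* genes are near-identical copies that share reads, so the division of reads between them is uncertain. *Siglec5*, the name the table gives to the locus of the eosinophil lectin *Siglecf* on chromosome 7, had 13.2 and 24.2 FPKM at day 12 and 16.3 and 44.9 FPKM at day 21. Summed over the 10 genes of the list, FPKM went from 1893 in SL to 6418 in SFGL on day 12 and from 2819 to 11370 on day 21, against 4.09 and 4.94 in uFIB. The library labelled FGL had a sum of 706 FPKM at day 12 and 6.85 FPKM at day 21. Genes for the receptors of mature eosinophils were low throughout, with at most 1.58 FPKM for *Ccr3*, the eotaxin receptor, and at most 0.273 FPKM for *Il5ra*, the IL5 receptor subunit, in the 4 libraries. The lipoxygenase gene *Alox15* had 4.35 and 10.5 FPKM at day 12 and 0.610 and 2.71 FPKM at day 21 and was not tested.

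**Figure D2:**
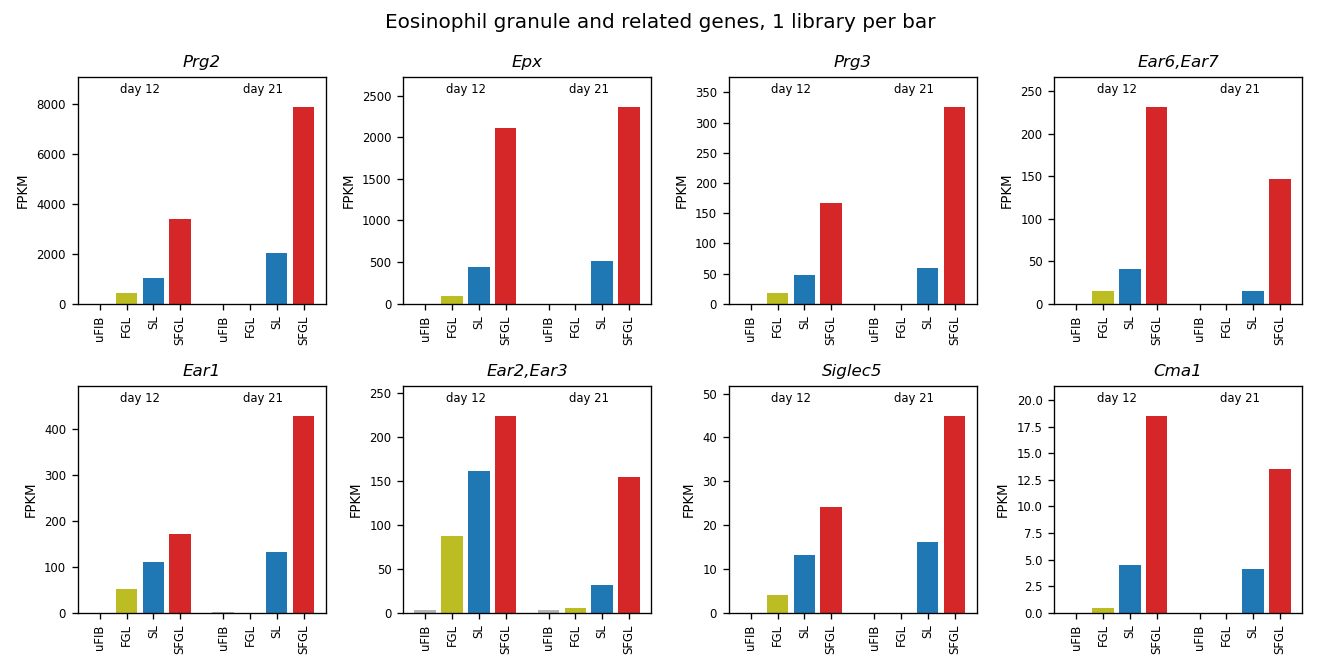
FPKM of 7 entries of the eosinophil list and of the mast cell gene *Cma1* in the 8 fibroblast libraries, 1 bar per library, on linear axes that start at 0. On each day the SFGL bar (red) is the highest in every panel, as in *Prg2* with 7901 FPKM in SFGL and 2049 FPKM in SL at day 21.

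The promoters of 2 eosinophil and 2 neutrophil granule genes are given because these genes stood at opposite ends of the comparison. Each is the stretch of 250 bases before a start given by RefSeq, 5′ to 3′ on the strand of the gene, from the GRCm38.p6 assembly. For *Prg3* this start lies inside the gene span given above, which begins at 84988196. The last bases of its stretch therefore overlap that span, and its distances are counted from the later start. Capitals mark the letters AGATAA or TGATAA, bound by GATA factors, and CCGGAA or CAGGAA, bound by ETS factors, on either strand. *Epx* is read from chr11:87875537-87875786 (minus strand), *Prg3* from chr2:84987965-84988214 (plus strand), *Ltf* from chr9:111019042-111019291 (plus strand) and *Camp* from chr9:109849457-109849706 (minus strand).
Epx: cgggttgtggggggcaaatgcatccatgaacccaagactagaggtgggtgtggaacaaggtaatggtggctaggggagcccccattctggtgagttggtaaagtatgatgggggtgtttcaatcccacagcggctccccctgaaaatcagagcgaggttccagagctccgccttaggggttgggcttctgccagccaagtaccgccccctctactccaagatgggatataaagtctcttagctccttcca
Prg3: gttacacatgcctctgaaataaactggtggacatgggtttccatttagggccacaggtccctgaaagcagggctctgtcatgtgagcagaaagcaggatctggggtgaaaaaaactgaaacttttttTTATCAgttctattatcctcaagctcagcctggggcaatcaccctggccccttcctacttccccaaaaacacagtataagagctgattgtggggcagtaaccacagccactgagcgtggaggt
Ltf: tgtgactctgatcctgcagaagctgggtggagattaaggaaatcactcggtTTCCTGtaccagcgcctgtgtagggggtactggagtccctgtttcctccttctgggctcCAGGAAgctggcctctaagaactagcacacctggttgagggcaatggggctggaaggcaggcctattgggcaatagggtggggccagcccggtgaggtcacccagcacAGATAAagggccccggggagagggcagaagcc
Camp: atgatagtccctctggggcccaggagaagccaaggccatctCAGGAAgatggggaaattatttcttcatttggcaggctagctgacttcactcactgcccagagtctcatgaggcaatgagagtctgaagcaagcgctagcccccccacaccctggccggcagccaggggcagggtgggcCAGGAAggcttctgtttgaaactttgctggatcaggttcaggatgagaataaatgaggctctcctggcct
*Epx* had neither set of letters. *Prg3* had 1 GATA match, on the minus strand, whose first base lies 123 bases before the start. *Ltf* had 1 GATA match at 32 bases before the start and ETS matches at 140 and 199 bases, and *Camp* had ETS matches at 70 and 209 bases. A match describes letters in this window and not a bound site.

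The letters were then sought in the wider window of 250 bases before to 50 bases after the start. A gene was counted when any of its RefSeq promoters held them, and promoters on chromosome 18 were left out. GATA letters were found in 11 of the 39 genes (28.2%) at least 1.5-fold higher in SFGL and in 7 of 44 (15.9%) at least 1.5-fold lower. The share was 11.6% over the 4694 tested genes with a promoter and 21.0% over the 27025 gene symbols of the RefSeq promoters used. ETS letters were in 41.0% of the higher genes, in 52.3% of the lower genes and in 54.5% of all tested genes. None of the 6 eosinophil genes with a promoter held the ETS letters, and 11 of 18 such neutrophil genes did (61.1%). Some of these 6 are *Ear* genes, which are near-identical copies, so the 6 are not independent. E-box letters (CAGATG) were in 15.4% of the higher, 22.7% of the lower and 12.5% of all tested genes. RUNX letters (TGTGGT) were in 23.1%, 15.9% and 14.6%, and in 33.3% of both the eosinophil and the neutrophil genes. A promoter was found for 39 of the 52 higher and 44 of the 57 lower genes.

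The other 5 genes called higher include genes known from mast cells, megakaryocytes, progenitors and endothelium. *Cma1*, a chymase of connective tissue mast cells, had 4.54 FPKM in SL and 18.5 FPKM in SFGL on day 12, followed by 4.14 and 13.5 FPKM on day 21. *Itga2b*, which encodes CD41, the integrin of megakaryocytes and of the first blood progenitors, had 49.7 and 108 FPKM at day 12 and 53.6 and 117 FPKM at day 21. *Pecam1*, which encodes the adhesion molecule CD31 of endothelium and leukocytes, had 10.5 and 26.4 FPKM at day 12 and 6.65 and 14.8 FPKM at day 21. CD41 and CD31 were among the surface proteins against which the fibroblasts were selected at the start, and uFIB had at most 1.10 FPKM of *Itga2b* and 0.0896 FPKM of *Pecam1*. *P2ry14*, a receptor for UDP-glucose found on blood progenitors, had 8.68 and 19.1 FPKM at day 12 and 4.05 and 10.5 FPKM at day 21. *Spns3*, a sphingosine transporter-like gene, had 21.4 and 47.4 FPKM at day 12 and 23.9 and 57.0 FPKM at day 21. *Cma1* and *P2ry14* were below 10 FPKM in SL on both days and were tested only through their SFGL values. *Pecam1* was below 10 FPKM in SL at day 21 and entered on that day only through SFGL. In all 9 genes uFIB was below both SL and SFGL.

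Next to these, 3 further genes complete the 12 with the highest smaller change of the 2 days. *Cyp11a1*, the side-chain cleavage enzyme of steroid synthesis, which is also made by mast cells and basophils, had 145 and 277 FPKM at day 12 and 107 and 242 FPKM at day 21. *Nkg7*, a granule membrane protein of cytotoxic cells, had 31.0 and 61.9 FPKM and then 16.6 and 52.2 FPKM. *Perp*, a p53 target of cell junctions, had 16.5 and 33.7 FPKM and then 14.3 and 29.1 FPKM. *Nkg7* was the only 1 of 13 lymphoid genes that could be tested, and 10 of the 13 were under 1 FPKM in all 4 libraries.

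Mast cell and basophil genes were mostly higher in SFGL, and unevenly so. Of 9 tested genes 7 were higher on both days and 1 lower, with medians of 0.46 and 0.78, and only *Cma1* was called. Over all tested genes 33.4% were higher on both days and 33.9% lower. *Cma1* and *Slc18a2* were below 10 FPKM in SL on both days and entered only through SFGL, so they could count only as higher. *Srgn*, the proteoglycan core of mast cell granules, had 1381 and 2226 FPKM at day 12 and 856 and 1515 FPKM at day 21. *Cpa3*, the mast cell carboxypeptidase, had 70.2 and 116 FPKM and then 62.5 and 84.7 FPKM, and *Hdc*, which makes histamine, had 121 and 138 FPKM and then 70.0 and 155 FPKM. *Slc18a2*, which loads histamine into granules, had 6.42 and 10.8 FPKM and then 4.97 and 18.3 FPKM. The basophil protease gene *Mcpt8* went the other way by a small amount, with 736 and 666 FPKM at day 12 and 663 and 620 FPKM at day 21. *Tpsb2*, a tryptase of mast cells, had 3.49 and 2.89 FPKM at day 12 but 3.57 and 31.8 FPKM at day 21 and was not tested for its low level on the first day. *Prss34*, a basophil protease gene outside the list that was named after its values were seen, had 159 and 267 FPKM and then 117 and 272 FPKM.

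Among cytokine receptors, 7 of 10 tested genes were higher on both days and 1 was lower, with medians of 0.20 and 0.26, and none was called. The shares over all tested genes were 33.4% higher and 33.9% lower. *Csf2rb*, the signalling subunit shared by the receptors of IL3, IL5 and GM-CSF, had 228 and 272 FPKM at day 12 and 177 and 315 FPKM at day 21. *Csf2rb2*, its mouse relative for IL3, had 115 and 181 FPKM and then 77.2 and 191 FPKM. *Il1rl1*, the IL33 receptor of mast cells, had 12.4 and 16.5 FPKM and then 9.05 and 24.9 FPKM, and it entered at day 21 only through SFGL. *Csf2ra*, the GM-CSF receptor, had 43.2 and 64.6 FPKM and then 17.1 and 27.5 FPKM. The remaining tested receptors changed less or in mixed directions. *Il3ra* changed by 0.53 and 0.31, *Il2rg* by 0.14 and 0.12 and *Ifngr1* by 0.12 and 0.11. *Il6st* changed by -0.14 and 0.16 and *Il4ra* by -0.30 and 0.21. The gene lower on both days was *Il11ra1*, with -0.19 and -0.29.

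Blood transcription factors changed little beside the granule genes. Of 13 tested factors outside the GATA and ETS families 7 were higher on both days and 5 lower, with medians of 0.07 and 0.27. The shares over all tested genes were 33.4% higher and 33.9% lower. *Cebpe*, a factor of late granulocytes, had 143 and 153 FPKM at day 12 and 88.6 and 116 FPKM at day 21, and *Cebpa* had 45.9 and 35.7 FPKM and then 27.4 and 26.0 FPKM. *Gfi1b*, a repressor of red cells and megakaryocytes, had 15.7 and 20.1 FPKM and then 24.9 and 41.5 FPKM. *Ikzf2*, which encodes Helios, had 5.91 and 11.6 FPKM and then 6.62 and 14.7 FPKM. It entered on both days only through SFGL, so it could count only as higher. In the GATA family and its cofactors 3 of 6 tested genes were higher on both days and 1 lower, with medians of 0.04 and 0.22. *Gata1*, needed for eosinophils, red cells and megakaryocytes, had 19.9 and 23.4 FPKM and then 29.9 and 49.5 FPKM, with at most 0.0225 FPKM in uFIB. Of 11 tested ETS factors other than *Fli1*, 4 were higher and 6 lower, with medians of -0.12 and -0.13. *Sfpi1*, which encodes PU.1, had 156 and 171 FPKM and then 81.6 and 102 FPKM, while *Ets1* had 43.0 and 31.9 FPKM and then 30.8 and 19.9 FPKM.

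Neutrophil genes were the main blood genes with lower levels in SFGL. Of 19 tested genes of the list 13 were lower on both days and none was higher, with medians of -0.64 and -0.57, and 1, *Ltf*, was called. Over all tested genes 33.9% were lower on both days and 33.4% higher. Summed over the list, FPKM went from 40194 in SL to 23844 in SFGL on day 12 and from 17424 to 10781 on day 21. The antimicrobial calcium-binding protein gene *S100a8* had 13249 and 6209 FPKM at day 12 and 4309 and 2740 FPKM at day 21, and its partner *S100a9* had 8455 and 4130 FPKM and then 2841 and 1837 FPKM. *Ngp*, the neutrophilic granule protein gene, had 10714 and 7815 FPKM and then 5816 and 3358 FPKM. Neutrophil transcripts thus stayed abundant in SFGL, and *Ngp* was still among the 4 genes with the highest FPKM in both SFGL libraries.

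The granule genes of the neutrophil list were further divided by the granule that holds their product, after the values were seen. Secondary and tertiary granules are formed later in neutrophil maturation than primary granules. Of 6 secondary and tertiary granule genes 5 were lower on both days, and only *Ltf* was called, with medians of -0.97 and -0.71. *Ltf*, lactoferrin, had 712 FPKM in SL and 261 FPKM in SFGL on day 12, followed by 271 and 120 FPKM on day 21. *Camp*, the cathelicidin gene, had 1159 and 588 FPKM and then 1116 and 422 FPKM, just outside the limit at day 12. Among genes outside the list, *Olfm4*, called by its own change and made by a subset of neutrophils, had 468 and 218 FPKM and then 306 and 132 FPKM. *Cd177*, likewise called and outside the list, a surface protein carried by neutrophils, had 185 and 73.6 FPKM and then 71.6 and 30.1 FPKM. *Lcn2*, an iron-trapping protein, had 1525 and 800 FPKM and then 726 and 468 FPKM. The exception among the 6, *Mmp8*, neutrophil collagenase, had 153 and 78.0 FPKM at day 12 and 71.3 and 77.7 FPKM at day 21.

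The 4 primary granule genes had medians of 0.34 at day 12 and -0.35 at day 21. *Mpo*, myeloperoxidase, had 582 and 853 FPKM at day 12 and 359 and 288 FPKM at day 21. *Elane*, neutrophil elastase, had 497 and 607 FPKM and then 294 and 239 FPKM, and *Prtn3*, proteinase 3, had 618 and 808 FPKM and then 448 and 313 FPKM. *Ctsg*, cathepsin G, was lower on both days, with 378 and 345 FPKM and then 509 and 390 FPKM. No primary granule gene changed 2-fold on either day.

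**Figure D3:**
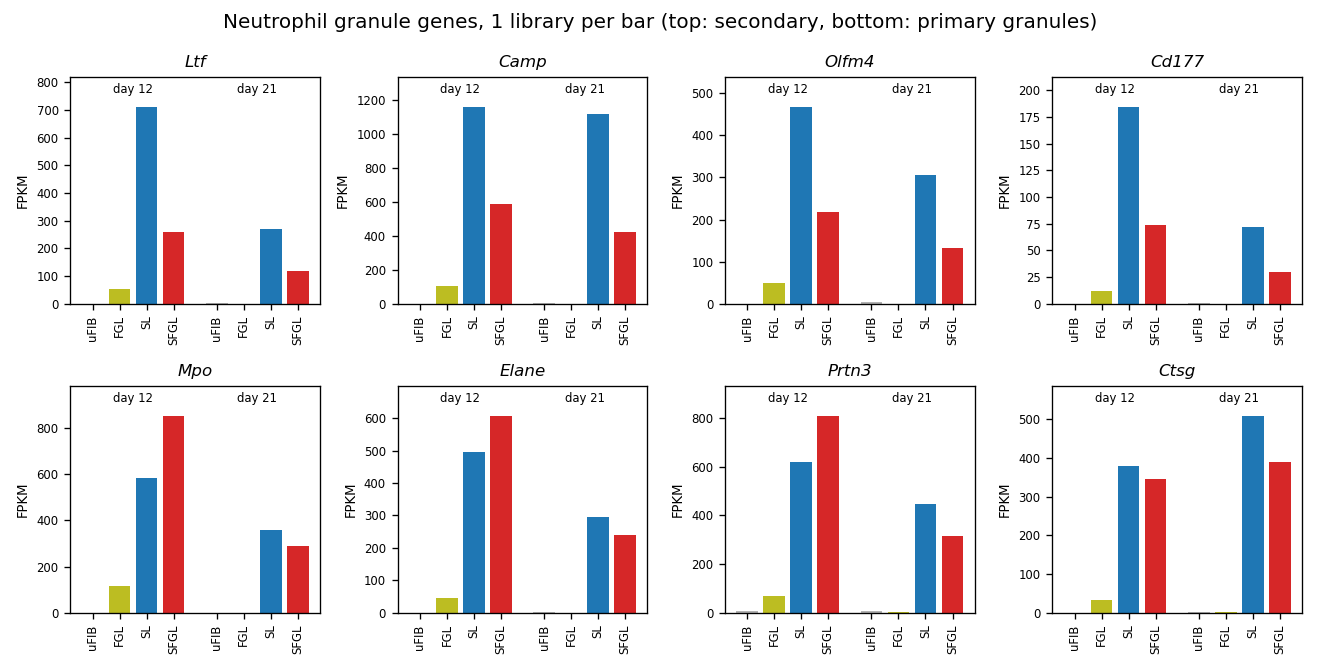
FPKM of 4 genes of secondary granules or of neutrophil surface and subset proteins (top row) and of 4 primary granule genes (bottom row) in the 8 fibroblast libraries, 1 bar per library, on linear axes that start at 0. SL (blue) exceeds SFGL (red) on both days in the top row, as in *Ltf* with 712 and 261 FPKM at day 12, whereas in *Mpo*, *Elane* and *Prtn3* the order turns between the days.

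Beside *Ltf*, *Olfm4* and *Cd177*, the genes called lower were *Apod*, *Cfd* and *Ceacam10*. *Apod*, which encodes the lipid carrier apolipoprotein D of fibroblasts, had 22.3 and 6.24 FPKM at day 12 and 41.6 and 13.4 FPKM at day 21, with 167 and 338 FPKM in uFIB. *Cfd*, which encodes adipsin of fat cells, had 123 and 59.5 FPKM and then 17.5 and 8.17 FPKM, with 622 and 444 FPKM in uFIB. *Ceacam10*, a carcinoembryonic antigen relative, had 40.2 and 18.9 FPKM and then 14.8 and 5.85 FPKM and was at most 0.136 FPKM in uFIB. *Apod* at day 12 and *Cfd* and *Ceacam10* at day 21 were below 10 FPKM in SFGL and entered on that day only through SL. The 6 genes therefore comprise 2 that were highest in untreated fibroblasts and 4 that had at most 5.40 FPKM there.

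The next genes on the low side had a smaller change just short of 2-fold. *Cybb*, the oxidase subunit of phagocytes, had 105 and 48.5 FPKM at day 12 and 45.7 and 22.8 FPKM at day 21. *Mest*, an imprinted gene of embryonic mesoderm, had 116 and 49.9 FPKM and then 307 and 167 FPKM. *Tgfbi*, a matrix protein induced by TGF-beta, had 45.1 and 23.9 FPKM and then 43.9 and 19.6 FPKM, and *Il1rn*, the IL1 receptor antagonist, had 37.2 and 19.2 FPKM and then 36.2 and 19.6 FPKM. *Slfn5*, of the Schlafen family, had 23.7 and 12.0 FPKM and then 35.4 and 14.8 FPKM.

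Fibroblast genes were lower in SFGL by small amounts. Of 22 tested genes of the list 19 were lower on both days and none was higher, with medians of -0.34 and -0.48, and none was called. Over all tested genes 33.9% were lower on both days and 33.4% higher. *Col1a1*, a chain of type I collagen, had 784 FPKM in SL and 680 FPKM in SFGL on day 12, followed by 412 and 285 FPKM on day 21. *Sparc*, a collagen-binding matrix protein, had 672 and 512 FPKM and then 669 and 481 FPKM, and *Fn1*, fibronectin, had 431 and 341 FPKM and then 1072 and 763 FPKM. The summed FPKM of the list was 4805 and 3855 at day 12 and 4219 and 3168 at day 21, against 14341 and 11965 in uFIB. All 4 tested fat cell genes were lower on both days, with medians of -1.13 and -0.62. Of these, *Fabp4*, a fatty acid carrier, had 701 and 261 FPKM and then 229 and 169 FPKM, and *Adipoq*, adiponectin, had 45.4 and 18.7 FPKM and then 17.8 and 10.6 FPKM. Of 16 matrix proteases and inhibitors 11 were lower and none higher, with medians of -0.35 and -0.16, and of 15 tested collagen chains, a group taken after the values were seen, 13 were lower and none higher.

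The position of untreated fibroblasts differed between the higher and the lower genes. Of the 52 genes at least 1.5-fold higher in SFGL, uFIB of both days lay below SL and SFGL in 50 (96.2%) and above them in 0. Of the 57 genes at least 1.5-fold lower, uFIB lay above in 28 (49.1%) and below in 18 (31.6%). Over all tested genes these shares were 47.5% below and 30.8% above. The lower genes thus held both fibroblast genes and blood genes. The fibroblast genes as a group were lower in the same libraries in which eosinophil genes were higher, and the part that the share of unconverted cells has in either result was not tested.

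Red cell genes differed between the days. None of 17 tested genes was higher on both days, 7 were lower and 10 were mixed, with medians of -0.78 at day 12 and 0.14 at day 21. *Slc4a1*, the band 3 anion exchanger, had 68.0 FPKM in SL and 24.4 FPKM in SFGL at day 12 but 65.4 and 55.6 FPKM at day 21. *Hba-x*, the embryonic alpha-like globin, had 42.5 and 14.8 FPKM and then 115 and 106 FPKM. Globin genes with near-identical copies share reads, and their values are uncertain.

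The macrophage list held 8 tested genes, of which 2 were higher and 6 lower on both days, with medians of -0.83 and -0.34. Neutrophils also express several of these genes, such as *Cybb*, and 11 of the 27 genes of the list were under 1 FPKM in all 4 libraries, with *C1qa* and *Timd4* at 0. Of the macrophage markers that were not tested, *Emr1*, which encodes F4/80, had 5.35 and 6.69 FPKM and then 1.89 and 4.24 FPKM, and *Mpeg1* had 19.7 and 10.3 FPKM and then 4.50 and 7.26 FPKM. The summed FPKM of the list was 3331 in SL and 1883 in SFGL on day 12, then 1777 and 1423. Of 8 megakaryocyte and platelet genes 2 were higher on both days and 3 lower, with medians of -0.13 and 0.22. Only *Itga2b* of this list was called, and its platelet partner *Itgb3* changed by -0.12 and -0.23. Of 5 tested endothelial genes *Pecam1* was higher and 3 were lower on both days, with medians of -0.59 and -0.66. The progenitor and vessel gene *Cd34* had 32.3 and 18.7 FPKM and then 61.5 and 38.4 FPKM, and *Lyve1*, a hyaluronan receptor of lymphatic vessels and embryonic blood progenitors, had 14.5 and 8.99 FPKM and then 65.6 and 27.3 FPKM. The endothelial cadherin gene *Cdh5* had at most 3.92 FPKM in the 4 libraries. *Pecam1* and *Itga2b* were thus the only genes of their lists that were called.

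The remaining lists held no called gene. Of 24 cell cycle genes 4 were higher on both days and 9 lower, with medians of -0.08 and 0.00. Of 16 hypoxia and glycolysis genes 2 were higher and 3 lower, with medians of -0.22 and 0.24, and of 11 p53 targets and cell cycle inhibitors 4 were higher and 4 lower, with medians of 0.06 and -0.07. Smooth muscle genes had 3 of 7 lower and none higher, with medians of 0.04 and -0.42, chemokines and cytokines had 4 of 12 higher and 3 lower, with medians of -0.04 and 0.61, and interferon-stimulated genes had 1 of 3 higher and 1 lower, with medians of 0.38 and 0.00. *Spp1*, osteopontin, the only tested gene of the cartilage and bone list, had 315 and 176 FPKM at day 12 and 220 and 482 FPKM at day 21. No gene of antigen presentation reached 10 FPKM on both days.

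Genes of cytosolic ribosomal proteins moved in 1 direction, a pattern recognized after the values were seen. All 79 tested genes, of 82 in the table, were higher in SFGL on both days, with medians of 0.54 and 0.52, where 33.4% of all tested genes were higher on both days. The changes ran from 0.0022 to 0.79 at day 12 and from 0.15 to 0.88 at day 21, so that none reached 2-fold. *Rps24*, of the small subunit, had 1019 FPKM in SL and 1571 FPKM in SFGL on day 12, followed by 835 and 1328 FPKM on day 21, with 794 and 555 FPKM in uFIB. *Rpl17*, of the large subunit, had 901 and 1486 FPKM and then 792 and 1245 FPKM, and *Rps18* had 910 and 1381 FPKM and then 883 and 1368 FPKM. Summed over the list, FPKM was 64786 and 94185 at day 12 and 55993 and 80555 at day 21. Ribosomal proteins of mitochondria changed less, with 36 of 65 higher on both days, 5 lower and medians of 0.10 and 0.13. Of proteasome subunits 25 of 34 and of NADH dehydrogenase subunits 27 of 34 were higher on both days, with medians of 0.08 and 0.17 and of 0.12 and 0.18.

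Ribosomal protein transcripts are short, and the change varied with transcript length. A length was found for 95.4% of the tested genes, and 57 of the 79 ribosomal protein genes lay in the shortest of 5 equal groups of genes by length. Without them, the median change went from 0.02 at day 12 and 0.05 at day 21 in the shortest group to -0.07 and -0.04 in the longest. The medians of the ribosomal protein genes were 0.54 and 0.52, and the part of length in the result was not tested.

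**Figure D4:**
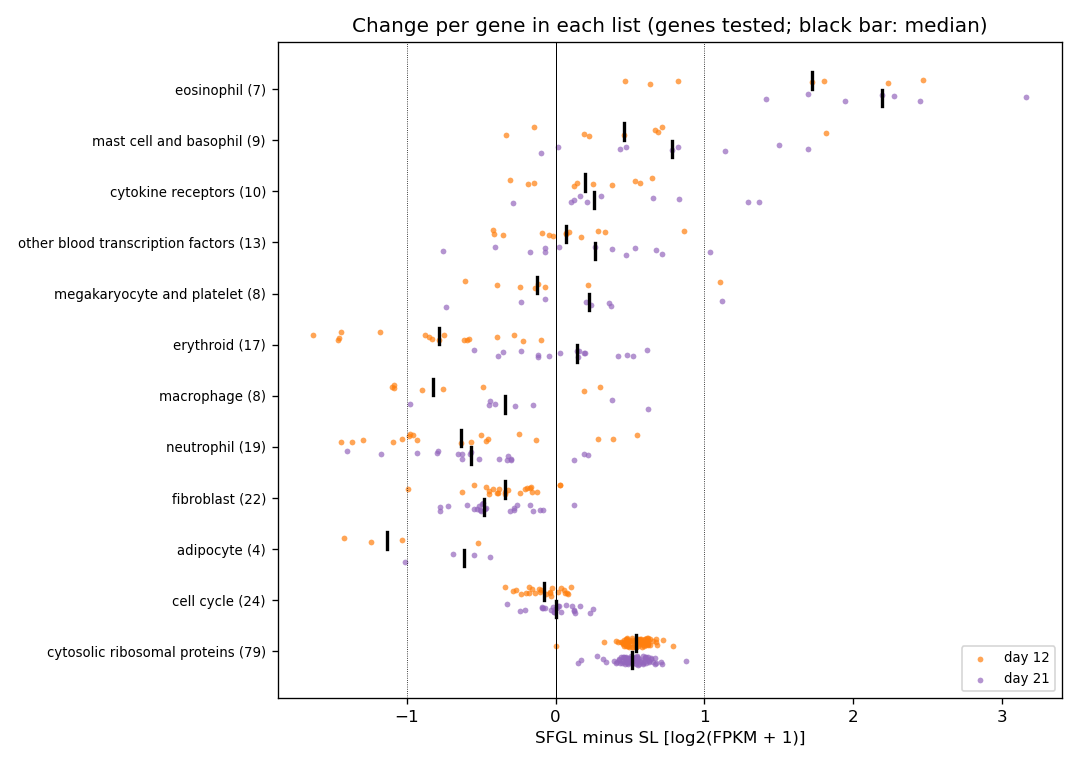
Change from SL to SFGL on log2(FPKM + 1) for every tested gene of 12 lists, with day 12 in orange, day 21 in purple, the number of genes in parentheses, black bars at the medians and dotted lines at 2-fold. Eosinophil genes lie farthest to the right with medians of 1.73 and 2.19, neutrophil, fibroblast and adipocyte medians lie left of 0 on both days, and the 79 ribosomal protein genes are gathered around 0.54 and 0.52.

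The table of developmental stages was used to ask where the genes that differ are expressed in blood development from embryonic stem cells in culture. It holds no stage of eosinophils, neutrophils, mast cells or megakaryocytes. Its values were normalized separately, so only positions within it are used. Of the 45 genes at least 1.5-fold higher in SFGL with at least 1 FPKM in some stage, 17.8% were highest in hematopoietic progenitors (HP) and 60.0% in macrophages (MAC). For 39 lower genes these shares were 12.8% and 56.4%, and for all tested genes 7.85% and 55.6%. *Itga2b* had its highest value in HP, with 62.5 FPKM, and *Pecam1* had 25.7 FPKM there and 23.8 FPKM in MAC. Granule genes varied in the stages. *Epx*, *Prg3* and *Camp* had at most 0.407, 0.503 and 0.129 FPKM, and *Prg2* was listed at 0 in all stages but MAC, where it had 29.6 FPKM. *S100a8*, *S100a9* and *Mmp8* had 39.1, 13.7 and 14.4 FPKM in MAC, and *Mpo* and *Prtn3* had 9.57 and 7.91 FPKM in HP. The entry Ear6,Ear7 was not matched in the stage table. Among the 5 stages used, *Gata2* was highest in the hemangioblast (HB), with 6.48 FPKM.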

How the data were processed

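RNA-seq was measured in 18 mouse samples, of which the 8 MEF libraries and the stage table were used. The authors aligned single-end SOLiD reads with SHRiMP to mm10 (GRCm38), kept unique reads and removed duplicates with Picard, as their methods state for the stages; the processing notes name TopHat and Cufflinks, with no versions given in the sources used here. The deposited FPKM values give 1 value per gene entry and MEF library, and 1 value per TSS and stage with replicates combined, in a table normalized separately. Unique reads and duplicate removal lower near-identical genes and the highest values. A further column (1, for HE) had no sample here and was not used.

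SFGL was compared with SL on log2(FPKM + 1) at day 12 and day 21, keeping genes whose higher library reached 10 FPKM on each day. A pseudocount of 1 and a limit of 2-fold on both days were used. With 1 library per condition no test between conditions was run; the precision of single values is not known. Of the entries 146 carry several names. Named genes were the 4 factors, the 12 genes at each end by the smaller of the 2 changes, list members past 2-fold and up to 4 list members with the largest mean level; further genes, *Prss34*, *Spp1*, *Cdh5* and the marker genes at low levels among them, were named after their values were seen. The members and lists were chosen with earlier results of these data known. Gene positions are from RefSeq, transcript lengths from GENCODE M21 and promoters from RefSeq (GRCm38.p6). RefSeq promoters, without those on chromosome 18, were matched by symbol for 4694 of 6063 genes, and a gene with several promoters was counted once. A gene of the red cell list is not reported here by name. The calling of genes by fold change was checked on simulated data, with planted changes larger than 2-fold in well-expressed genes and a noise set in advance. That check does not give the error of the calls made here. Alternatives were other pseudocounts, FPKM and fold limits, scalings and single days. Python 3.11.15, NumPy 2.4.6, pandas 2.3.3 and matplotlib 3.10.9 were used.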

Additional observations from a re-analysis of the deposited data

Results flagged for a closer look

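With 1 library per condition and day, no sample could be set against its replicates. Results were selected here when the change from SL to SFGL had opposite signs at day 12 and day 21, and none of these differences between the days was tested. *Il1b*, which encodes the cytokine IL1-beta, changed by -1.89 at day 12 and by 1.59 at day 21 on log2(FPKM + 1), from 15.9 FPKM in SL to 3.56 FPKM in SFGL and from 8.18 to 26.6 FPKM. The neutrophil collagenase gene *Mmp8* changed by -0.96 and 0.12. The primary granule genes *Mpo*, *Elane* and *Prtn3* changed by 0.55, 0.29 and 0.39 at day 12 and by -0.32, -0.30 and -0.51 at day 21, and the median of the 4 primary granule genes was 0.34 and -0.35. Among gene lists, the median change at day 12 and day 21 was -0.78 and 0.14 for red cell genes, -0.13 and 0.22 for megakaryocyte and platelet genes, 0.04 and -0.42 for smooth muscle genes and -0.04 and 0.61 for chemokines and cytokines. It was 0.38 and -0.0016 for interferon-stimulated genes, -0.08 and 0.0038 for cell cycle genes, 0.06 and -0.0748 for p53 targets and cell cycle inhibitors, and -0.22 and 0.24 for hypoxia and glycolysis genes. The cells of the 2 days came from different sources, so that day and source cannot be told apart in any of these differences.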

How the results depend on the processing

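No test was run, so the alternatives change counts and values only, and 1 library decides each value. No paired analysis was possible because no result comes from a test and no label pairs libraries beyond their day; each change was taken within its day, and a fit with condition and day was not run. The 9 genes higher in SFGL on both days became 52 at a 1.5-fold limit, 4 at a 3-fold limit and 42 at day 21 alone. The 6 lower genes became 57 at 1.5-fold, 0 at 3-fold, 11 with at least 1 FPKM or with no limit on FPKM, 35 at day 12 alone and 16 at day 21 alone. Under the other alternatives, with pseudocounts of 0.1 and 5, at least 20 FPKM, at least 10 FPKM in the highest of the 4 libraries, scaling to the upper quartile and centring on the median change, the counts lay within 1.5 times of these, between 6 and 11 genes higher and between 4 and 9 genes lower; day 12 alone gave 12 higher. The share of genes with the same direction lay between 65.7% and 68.1%. Under a pseudocount of 0.1, upper quartile scaling and centring, none of the 84 values of 28 named genes changed sign and 11 moved by more than the SD of the 2 days, and of 63 values of 21 gene lists 2 moved by more than that and 1 changed sign, the median of p53 targets and cell cycle inhibitors, at 0.0107 with upper quartile scaling. A single day is not judged by this SD. At 1 day alone the sign was opposite to the mean of both days for megakaryocyte and platelet (-0.1273 at day 12), smooth muscle (0.0369), chemokine and cytokine (-0.0362), p53 target (0.0588) and hypoxia genes (-0.2249), and at day 21 for red cell (0.1426), interferon-stimulated (-0.0016) and cell cycle genes (0.0038). FPKM values give no number of reads, so counting error is not known.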
